A study of Mus musculus with 8 samples.

Results

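Myc, Mycn, Mycl and Max are the 4 genes described here, out of 21866 protein-coding genes of the mouse annotation. They were taken by name, and accessible elements were collected within each gene body plus 200 kb on each side. The assay was ATAC-seq: Tn5 transposase inserts adapters where DNA is not covered by nucleosomes, and regions where the sequenced fragments accumulate are called as peaks. Peaks of the 8 libraries that shared at least 1 base were merged into 1 element. An element belonged to the gene whose coding transcript start (TSS) lay nearest to its summit, and it entered the consensus when at least 2 libraries called it. The 4 windows held 90 merged elements, of which 57 lay nearest to 1 of the 4 genes and 33 nearer another coding gene. Of the 57 own elements, 45 were consensus elements, out of 84777 consensus regions in the genome, and the other 12, all at Myc, were called in a single library.

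The cells were SN4741, a clonal line labelled as mouse neural precursor cells of wild-type genotype, derived from embryonic substantia nigra and immortalized by a temperature-sensitive T antigen under the tyrosine hydroxylase promoter. Per the study's karyotyping the line is polyploid and varies from cell to cell. At 37 °C, which permits T antigen function, 4 libraries were made from cells in 10% fetal bovine serum. At 39 °C, which does not, 4 were made after 48 h in 0.5% serum. Temperature, serum and T antigen activity therefore cannot be told apart. Aliquots held 50000 cells and were amplified with 12 PCR cycles. Nothing in the labels says that the aliquots came from separate cultures, so the p-values measure the spread between these libraries, which may be technical.

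Myc, Mycn and Mycl (c-Myc, N-Myc and L-Myc) are paralogous basic helix-loop-helix leucine zipper transcription factors. Each binds DNA only as a dimer with Max, at the E-box and related letters, and drives growth, ribosome production and cell cycle entry. Max also pairs with the Mxd proteins, Mnt and Mga, which oppose Myc at the same sites, and Mlx and its partners form a parallel arm of the network. Myc is an immediate response gene of serum and is used in most dividing cells, Mycn is best known from embryonic neural progenitors and neuroblastoma, and Mycl from lung and dendritic cells. The Myc gene lies in a wide interval without other coding genes, beside the long noncoding RNA gene Pvt1, and distal enhancers on both sides are known to control it in several tissues.

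The 200 bases before the most upstream coding TSS of Myc, Mycn and Max are shown first, because these windows lie in or beside the promoter peaks on which the comparisons rest, and none of them overlaps an annotated exon. They were read 5′ to 3′ on the gene's strand from the mm10 assembly. Capitals mark matches to 10 motifs searched on both strands: the E-box bound by Myc and Max (CACGTG), AP-1 (TGANTCA), TEAD (GGAATG), RUNX (TGTGGT), TCF/LEF (CTTTGAT), E2F (TTTNNCGC), NFY (CCAAT), SP/KLF (GGGCGG), CTCF (AGGNGGCNC) and the p53 decamer.
Myc, chr15:61985191-61985390, plus strand: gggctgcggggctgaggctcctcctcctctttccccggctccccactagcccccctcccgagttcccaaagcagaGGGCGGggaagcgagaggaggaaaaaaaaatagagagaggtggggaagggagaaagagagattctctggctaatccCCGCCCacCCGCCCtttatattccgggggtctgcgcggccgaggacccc
Mycn, chr12:12941915-12942114, minus strand: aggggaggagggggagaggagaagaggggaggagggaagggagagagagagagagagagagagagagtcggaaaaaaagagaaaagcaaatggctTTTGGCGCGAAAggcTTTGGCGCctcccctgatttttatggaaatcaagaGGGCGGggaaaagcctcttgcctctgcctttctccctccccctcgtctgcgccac
Max, chr12:76962202-76962401, minus strand: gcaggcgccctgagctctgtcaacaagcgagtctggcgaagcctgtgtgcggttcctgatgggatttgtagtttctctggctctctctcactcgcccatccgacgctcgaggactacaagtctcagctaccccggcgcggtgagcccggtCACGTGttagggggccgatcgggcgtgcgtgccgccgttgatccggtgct
These windows held different letters. Myc had 3 SP/KLF matches, and Mycn had 3 E2F matches, the first 2 of which share 4 bases, beside 1 SP/KLF match. The Max window had 1 E-box, the letters that Max dimers bind, from base 151 to base 156. Over the same 200 bases of 21853 coding genes, SP/KLF letters occurred in 38.3%, the E-box in 5.65% and E2F letters in 4.33%. A match is a description of the letters and not a site in use.

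The summit windows of 4 distal elements are shown as well, each 201 bases centred on the median summit and read on the plus strand of mm10. The Myc element is the strongest distal element of the family in every library. The 2 Mycl elements were called in all 4 libraries at 37 °C and in none at 39 °C. Of 14 own distal elements tested over equally long lists, the Max element is 1 of 3 that stood higher at 39 °C without overlap. Of all 41180 regions so tested, 15.5% did.
Myc, 92.1 kb downstream, chr15:62079380-62079580: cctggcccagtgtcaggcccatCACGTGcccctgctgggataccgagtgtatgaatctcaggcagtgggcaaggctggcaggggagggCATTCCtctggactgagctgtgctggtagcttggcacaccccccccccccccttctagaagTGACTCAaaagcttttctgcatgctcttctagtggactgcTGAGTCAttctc
Mycl, 4.78 kb upstream, chr4:122990771-122990971: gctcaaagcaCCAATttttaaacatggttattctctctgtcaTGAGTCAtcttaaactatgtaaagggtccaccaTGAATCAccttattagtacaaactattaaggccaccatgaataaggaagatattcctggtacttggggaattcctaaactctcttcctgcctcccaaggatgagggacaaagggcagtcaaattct
Mycl, 9.15 kb downstream, chr4:123005148-123005348: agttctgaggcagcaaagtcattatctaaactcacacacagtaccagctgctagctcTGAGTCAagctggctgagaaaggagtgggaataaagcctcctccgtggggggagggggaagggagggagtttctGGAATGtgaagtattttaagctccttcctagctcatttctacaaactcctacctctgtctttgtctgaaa
Max, 52.9 kb upstream, chr12:77015005-77015205: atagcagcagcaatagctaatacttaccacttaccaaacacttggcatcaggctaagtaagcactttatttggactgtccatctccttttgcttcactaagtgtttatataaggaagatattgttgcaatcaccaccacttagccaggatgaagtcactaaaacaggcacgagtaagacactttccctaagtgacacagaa
In the Myc element an E-box, a TEAD match and 2 AP-1 matches were found, and it was the only one of the 45 own elements with an E-box within 100 bp of its summit. The upstream Mycl element held 2 AP-1 matches and 1 NFY match, the downstream Mycl element 1 AP-1 and 1 TEAD match, and the Max element none of the 10 motifs.

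The more deeply sequenced libraries at 37 °C had the longer lists, which bears on every comparison. Fragments kept after removal of duplicates ranged from 49.8 M to 169 M at 37 °C, where replicates 1 and 4 had 169 M and 158 M, and from 52.7 M to 71.2 M at 39 °C. The lists held 74026 to 92013 peaks at 37 °C and 54845 to 68410 at 39 °C. The strength of a peak was therefore taken within its own library, as the percentile of its −log10 q among all peaks of that library, where 100 is the strongest. Since weak peaks at the end of a longer list raise the percentile of all others, percentiles were also taken over the 54845 strongest peaks of each library, called equal numbers below. That cut takes more weak peaks from the longer lists, where a peak just above it stands near the bottom. With 4 libraries against 4 the smallest p of the exact two-sided permutation test was 0.0286, reached when the groups did not overlap, and such groups are described as apart or without overlap. No adjusted p (Benjamini-Hochberg over all genes or regions) fell below 0.05 in any of these comparisons, the smallest being 0.157 for element counts, 0.0539 for promoter percentiles, 0.123 for promoter widths and 0.0520 for regions called in all 8 libraries.

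The cell type label was compared with promoter peaks of its markers. Of 6 neural precursor genes, Nes, Sox2 and Pax6 had a promoter peak within 1 kb of a coding TSS in all 8 libraries, Sox1 in 4 at 37 °C and 3 at 39 °C, Hes5 in 2 and none, and Fabp7 in none. All 3 neuronal genes (Tubb3, Rbfox3, Map2) and all 4 mesenchymal genes (Col1a1, Col1a2, Prrx1, Twist1) had 1 in every library. Among the glial genes Aqp4 had 1 in all 8, Gfap in 1 library at 37 °C and Olig2 in none. Over all 21866 coding genes, 12831 had a promoter peak in all 8 libraries. Of the markers called in all 8, Pax6 and Rbfox3 were the weakest, with 1.38% and 3.06% of these promoters lower in mean percentile. Peaks were thus called at promoters of both neural and mesenchymal genes, but calls this common do not identify a cell type. The part of these genes in the results below was not tested.

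All 4 genes had a promoter peak in all 8 libraries, and their levels followed the same order at both temperatures. Max had the strongest promoter, at a mean percentile of 98.3 ± 0.344 (SD, n = 4) at 37 °C and 98.2 ± 0.435 at 39 °C. Myc followed at 97.2 ± 1.51 and 95.5 ± 0.990. Mycl stood at 78.2 ± 2.06 and 66.4 ± 3.86, and Mycn was the weakest at 51.1 ± 7.95 and 21.0 ± 9.77. Max and Myc overlapped at 37 °C and did not overlap at 39 °C, and the ranges of Myc, Mycl and Mycn were apart at both temperatures. Among 12831 coding genes with a promoter peak in all 8 libraries, whose median percentile was 90.0, the share with a lower mean was 90.3% for Max, 79.8% for Myc, 14.1% for Mycl and 2.19% for Mycn.

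**Figure D1:**
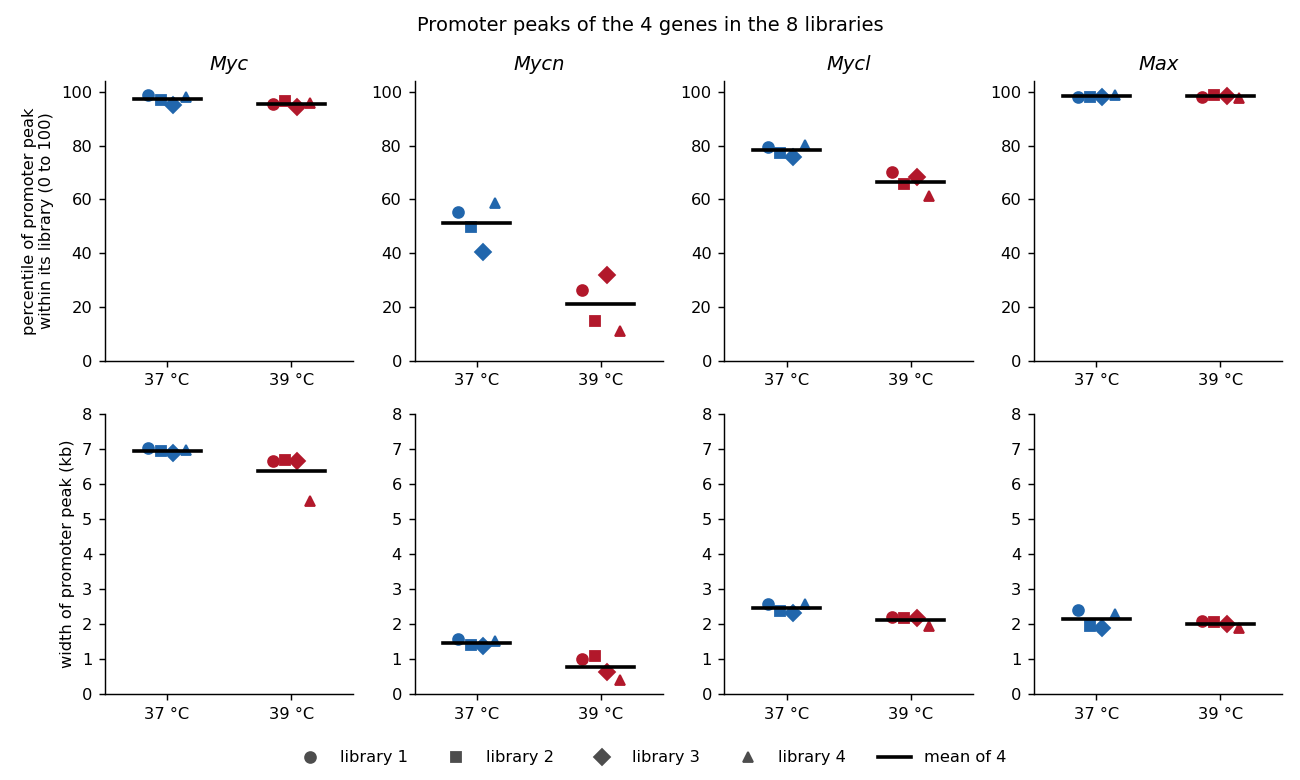
Promoter peaks of Myc, Mycn, Mycl and Max in the 8 libraries: percentile within the library (upper row) and width in kb (lower row) at 37 °C and 39 °C, with 1 symbol per library and the mean as a bar. The Mycn and Mycl percentiles do not overlap between temperatures, while those of Myc and Max do, and the Myc peak is the widest in every library.

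Myc, the broadly used member, kept a strong promoter at both temperatures. Its percentiles in replicates 1 to 4 were 98.7, 97.0, 95.2 and 97.9 at 37 °C. At 39 °C they were 95.5, 96.5, 94.2 and 95.9. The groups overlapped through replicate 3 at 37 °C, the lowest of its group, and the difference of −1.69 had an exact permutation p of 0.143, with −1.19 and p = 0.400 in an exact test with equal numbers. Without replicate 3 at 37 °C the difference was −2.36 (exact permutation p = 0.0286). Of all promoters, 52.6% were lower at 39 °C without overlap and 0.491% higher. With equal numbers these shares were 15.1% and 7.46%. A larger fall than that of Myc was seen at 60.9% of all promoters, and at 23.3% of the 5685 within 5 percentile points of its mean.

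The Myc promoter element, chr15:61983002-61990030, reached from upstream of the gene over nearly the whole gene body, chr15:61985391-61990374. Its peak was 7029, 6955, 6882 and 6973 bp wide at 37 °C and 6668, 6699, 6676 and 5522 bp wide at 39 °C. Every library at 39 °C was narrower than every library at 37 °C, by 568 bp on average (6960 ± 60.7 against 6391 ± 580, exact permutation p = 0.0286, adjusted p = 0.123). Replicate 4 at 39 °C, the library with the shortest list, was the narrowest, and without it the difference was −279 bp. Leaving out any 1 library at 37 °C gave −594 to −545 bp with an exact permutation p of 0.114. Promoter peaks narrower at 39 °C without overlap made up 23.1% of all promoters and wider ones 0.109%.

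Mycn, the member of embryonic neural progenitors, showed the largest difference of the 4 promoters. Its percentiles were 55.4, 49.9, 40.4 and 58.6 at 37 °C. At 39 °C they were 26.1, 14.8, 32.0 and 11. Every library at 39 °C was below every library at 37 °C, with a difference of −30.1 (exact permutation p = 0.0286, adjusted p = 0.0539). The peak was also narrower in each library at 39 °C, with 1557, 1403, 1366 and 1501 bp at 37 °C against 993, 1088, 620 and 385 bp at 39 °C (1457 ± 87.8 against 772 ± 327, exact permutation p = 0.0286, adjusted p = 0.123). Leaving out any 1 library at 37 °C gave differences in width of −716 to −652 bp with an exact permutation p of 0.0571.

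Across all promoters the differences were larger among weak peaks than among strong ones, as the plot of all promoters shows. Only 0.787% of all promoters had a larger fall than Mycn, but among the 206 promoters within 5 percentile points of its mean the median difference was −22.9, and 14.6% fell further. Of these 206, 79.1% were lower at 39 °C without overlap. The Mycn promoter peak was not among the 54845 strongest of replicate 2 at 39 °C, so that no test with equal numbers of all 8 libraries could be made. Over the other 7 libraries, with replicate 4 at 39 °C left out and the lists shortened to the smallest of those, the difference was −16.3 (exact permutation p = 0.0286), an alternative chosen after seeing the data.

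Mycl, the remaining paralog, also had a weaker promoter peak in every library at 39 °C. The percentiles were 79.5, 77.4, 75.7 and 80.2 at 37 °C. At 39 °C they were 70.1, 65.8, 68.4 and 61.2. The difference of −11.8 (exact permutation p = 0.0286, adjusted p = 0.0539) was −6.39 with equal numbers, again without overlap (exact permutation p = 0.0286). A larger fall was seen at 9.12% of all promoters, and at 5.92% with equal numbers. The 977 promoters within 5 points of the Mycl mean had a median difference of −7.83. Of these 977, 11.1% fell further and 81.8% were lower at 39 °C without overlap. The peak measured 2580, 2358, 2312 and 2567 bp at 37 °C and 2199, 2185, 2167 and 1948 bp at 39 °C, a difference of −330 bp (exact permutation p = 0.0286, adjusted p = 0.123). Without replicate 4 at 39 °C it was −271 bp with an exact permutation p of 0.0571.

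Max, the obligate partner, differed least. Its percentiles were 98.2, 98.2, 97.9 and 98.8 at 37 °C. At 39 °C they were 98.1, 98.7, 98.5 and 97.7. The groups lay over each other, with a difference of −0.0145 (exact permutation p = 0.971) that was 0.556 with equal numbers (exact permutation p = 0.0857). Widths were 2412, 1934, 1894 and 2283 bp at 37 °C, where the 2 deeply sequenced libraries were the widest, and 2096, 2054, 1992 and 1888 bp at 39 °C (exact permutation p = 0.400). A larger fall than that of Max was seen at 93.1% of promoters, and at 84.6% of the 4552 promoters within 5 percentile points of its mean.

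**Figure D2:**
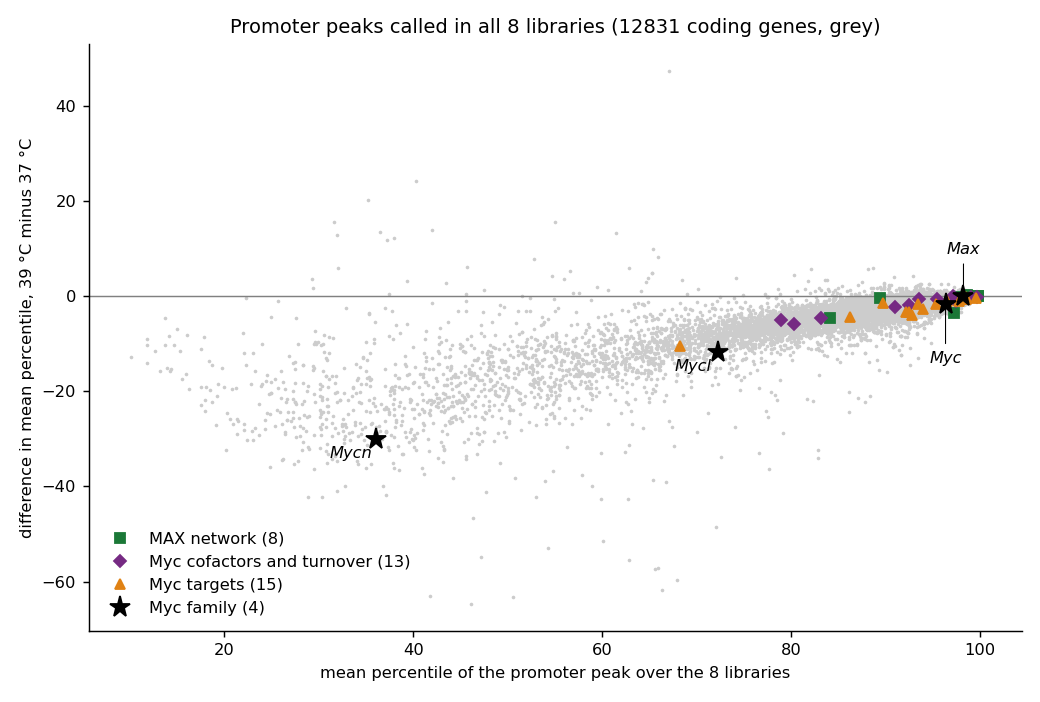
Each point is 1 of 12831 coding genes with a promoter peak in all 8 libraries: mean percentile over the libraries against the difference of the means, 39 °C minus 37 °C, both in percentile points. Mycn and Mycl lie toward the lower edge of the cloud at their levels, Myc and Max near 0 at the strong end, together with most genes of the 3 lists of the Myc network.

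Around the promoters, the 4 genes differed in how many distal elements they had. Myc had 28 own distal consensus elements, Max 10, Mycl 3 and Mycn none. With its 29 consensus elements Myc ranked 108 of 21866 coding genes, whose median, over genes with at least 1, was 3. The Mycn promoter element, chr12:12941351-12942907, was the single element of its window, so that within 200 kb of Mycn (chr12:12936093-12941914, minus strand) nothing else was called in any library. No element in the windows of Myc or Mycn lay nearer another coding gene, whereas 24 did so in the Mycl window and 9 in the Max window.

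The Myc elements called in each library numbered 29, 21, 23 and 29 at 37 °C. At 39 °C they numbered 20, 19, 18 and 16. Each library at 39 °C had fewer than any at 37 °C, with means of 25.5 ± 4.12 and 18.2 ± 1.71 (difference −7.25, exact permutation p = 0.0286, adjusted p = 0.157), while 17.9% of the 16837 coding genes with an own consensus element had fewer without overlap and 0.309% had more. Of the 29 elements counted, 8 entered the consensus through libraries at 37 °C alone and none through those at 39 °C alone. The test of these counts is therefore not independent of that filter. At 37 °C the 2 deeply sequenced libraries had 29 each, while of the other 2 the library with 64.2 M fragments had 21 and that with 49.8 M had 23, and the part of depth in these counts was not tested. Between libraries with fewer than 100 M fragments the difference was −3.75 (exact permutation p = 0.267, the smallest possible there being 0.0667), and with equal numbers it was −1.25 (exact permutation p = 0.114). With equal numbers in the 7 libraries other than replicate 4 at 39 °C, chosen after seeing the data, it was −1.67 without overlap (exact permutation p = 0.0286). Leaving out any 1 library at 39 °C gave −7.83 to −6.50 with an exact permutation p of 0.0571. The bases covered by these elements came to 47.8 ± 10.4 kb at 37 °C and 34.5 ± 6.15 kb at 39 °C.

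Most of the distal elements of Myc lay on its downstream side. There were 25 downstream and 3 upstream, and 20 of them were in Pvt1, the noncoding gene at chr15:62037986-62378096. When the start of any annotated gene was allowed as the nearest, elements nearer Pvt1, small noncoding genes within it or, upstream, Gm18154 no longer counted as those of Myc, 4 elements remained and the difference between temperatures was 0. Of the 28, 15 were called in all 8 libraries, against 44861 of all 84777 consensus regions. Called in fewer libraries at 39 °C than at 37 °C were 12, and none in fewer at 37 °C, against 37.9% and 5.46% of all consensus regions.

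**Figure D3:**
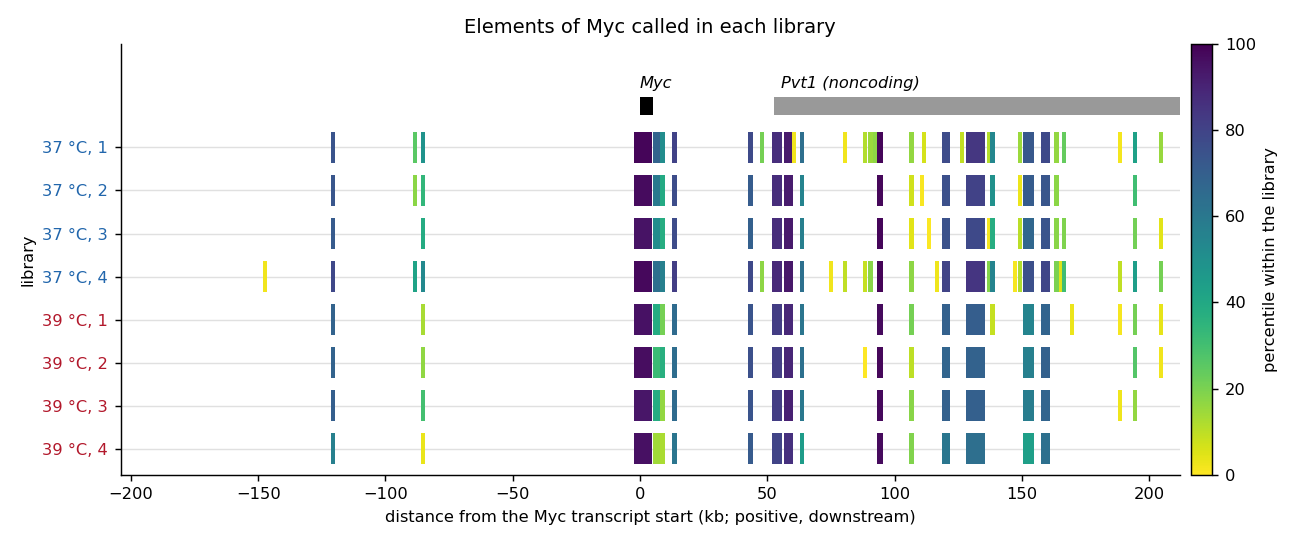
Own elements of Myc by distance from the transcript start in kb, with 1 line per library and the percentile within the library as colour; the extent of the merged element is drawn (at least 1.6 kb, so that it can be seen) wherever that library called it. The strong elements recur in all 8 lines, and the pale ones are more frequent at 37 °C, above all in replicates 1 and 4.

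The strongest distal element of Myc had a higher percentile than the Myc promoter peak in 7 libraries and the same, as rounded here, in replicate 1 at 37 °C. It lay in a Pvt1 intron 92.1 kb downstream, chr15:62078469-62080905, and its sequence with the E-box is shown above. Its percentiles were 98.7, 98.3, 98.5 and 99.0 at 37 °C and 97.4, 98.1, 98.0 and 97.3 at 39 °C. These did not overlap, although the difference was −0.938 (exact permutation p = 0.0286, adjusted p = 0.0520), and with equal numbers it was −0.632 (exact permutation p = 0.0571). Without replicate 4 at 37 °C it was −0.807 with an exact permutation p of 0.0571. The width was nearly the same, 2226 bp at 37 °C and 2185 bp at 39 °C.

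The next in strength were a pair of neighbours at the start of Pvt1. The element 56.5 kb downstream, chr15:62041918-62045400, in a Pvt1 intron, had percentiles of 92.6, 92.2, 93.2 and 93.4 at 37 °C and 88.8, 89.3, 91.0 and 86.1 at 39 °C. The difference of −4.02 (exact permutation p = 0.0286) was −2.13 with equal numbers (exact permutation p = 0.0571), and leaving out any 1 library at 37 °C also gave an exact permutation p of 0.0571. The element 50.6 kb downstream, chr15:62037069-62041363, with its summit in a noncoding exon of Pvt1, stood at 87.0, 87.3, 87.2 and 88.4 at 37 °C and at 82.1, 81.8, 82.2 and 79.9 at 39 °C. Here the difference was −5.94, and −2.67 with equal numbers, without overlap in either (exact permutation p = 0.0286), while equal numbers in the 7 libraries other than replicate 4 at 39 °C gave −2.61 with an exact permutation p of 0.0571. This element covers the annotated start of Pvt1.

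Among the Myc elements called in all 8 libraries, the largest difference was at an element close to the gene. An element 4.28 kb downstream of the nearest start, chr15:61990525-61993176, begins just beyond the gene's end. Its percentiles were 68.4, 59.7, 51.8 and 64.0 at 37 °C and 38.3, 31.8, 38.5 and 14.3 at 39 °C. All libraries at 39 °C were lower, with a difference of −30.3, and of −21.7 with equal numbers (means 42.4 and 20.6), where again no values overlapped (exact permutation p = 0.0286). Its peaks also narrowed, from 2265 to 1444 bp (exact permutation p = 0.0286).

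The next 2 intergenic elements downstream of Myc were lower at 39 °C as well. The element 6.85 kb downstream, chr15:61993851-61994616, had 51.2, 39.4, 37.7 and 57.0 at 37 °C and 20.9, 37.1, 16.4 and 12.7 at 39 °C, a difference of −24.6 (exact permutation p = 0.0286). Replicate 2 at 39 °C was close to the lowest library at 37 °C, and leaving out any 1 library at 37 °C gave an exact permutation p of 0.0571. The groups overlapped with peaks of −log10 q of at least 5 (−24.2, exact permutation p = 0.0857) and with equal numbers in the 7 libraries (−10.3, exact permutation p = 0.200). The element 11.7 kb downstream, chr15:61998056-62000102, had 80.4, 76.9, 77.1 and 81.8 at 37 °C and 65.6, 64.6, 65.5 and 61.2 at 39 °C. Its difference of −14.8 was −10.3 with equal numbers, with no overlap in either (exact permutation p = 0.0286), and it held 2 AP-1 matches.

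Farther away, 2 more elements had differences among the 5 largest of the Myc elements called in all 8 libraries. An element 85.3 kb upstream, chr15:61899580-61900534, between genes, had 48.8, 34.1, 38.7 and 52.8 at 37 °C and 13.0, 16.6, 29.7 and 3.28 at 39 °C. Its difference was −28.0 (exact permutation p = 0.0286), but leaving out any 1 library at 37 °C gave an exact permutation p of 0.0571, and with equal numbers 3 of the 4 libraries at 39 °C still had it. With equal numbers in the 7 libraries the difference was −11.6, with overlap (exact permutation p = 0.0857). An element 152 kb downstream in a Pvt1 intron, chr15:62135837-62140075, had 73.0, 71.3, 66.8 and 75.6 at 37 °C and 54.7, 57.0, 58.2 and 43.8 at 39 °C. This difference of −18.2 was −11.5 with equal numbers, without overlap in either (exact permutation p = 0.0286).

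Of the other elements called in all 8 libraries, that 121 kb upstream differed by −8.26, and those 119, 132 and 157 kb downstream, in Pvt1 introns, by −10.1, −13.3 and −8.93, each without overlap (exact permutation p = 0.0286). With equal numbers the elements at 119 and 132 kb remained apart, at −3.92 and −9.43, while those 121 kb upstream (−0.786, exact permutation p = 0.771) and 157 kb downstream (−2.48, exact permutation p = 0.0857) overlapped. The weakest, 105 kb downstream, had a mean of 11.2 at 37 °C and 16.9 at 39 °C, with overlap (exact permutation p = 0.171).

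In all, 12 of the 15 distal elements of Myc called in all 8 libraries were lower at 39 °C without overlap and none was higher. Over all 44861 regions called in all 8 libraries, 54.2% were lower and 0.798% higher, and the median difference was −6.84, against −8.93 at these 15. With equal numbers, 12 of the elements were still called everywhere, 6 of them lower and 2 higher, against 22.5% lower and 15.5% higher of 41180 regions. The 2 higher ones, singled out after their values were seen, lay 41.2 and 61.5 kb downstream. The first had a mean of 74.2 at 37 °C and 73.8 at 39 °C over whole lists, and 61.9 and 69.7 with equal numbers (exact permutation p = 0.0286). The second had 60.0 and 57.5 over whole lists, and 40.7 and 51.3 with equal numbers (exact permutation p = 0.0286). The sign of both thus differed between whole and equal lists, and it also turned when single libraries were left out. Narrower peaks without overlap were found at 4 of the 15 and wider ones at none, against 22.2% and 0.733% of all such regions.

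**Figure D4:**
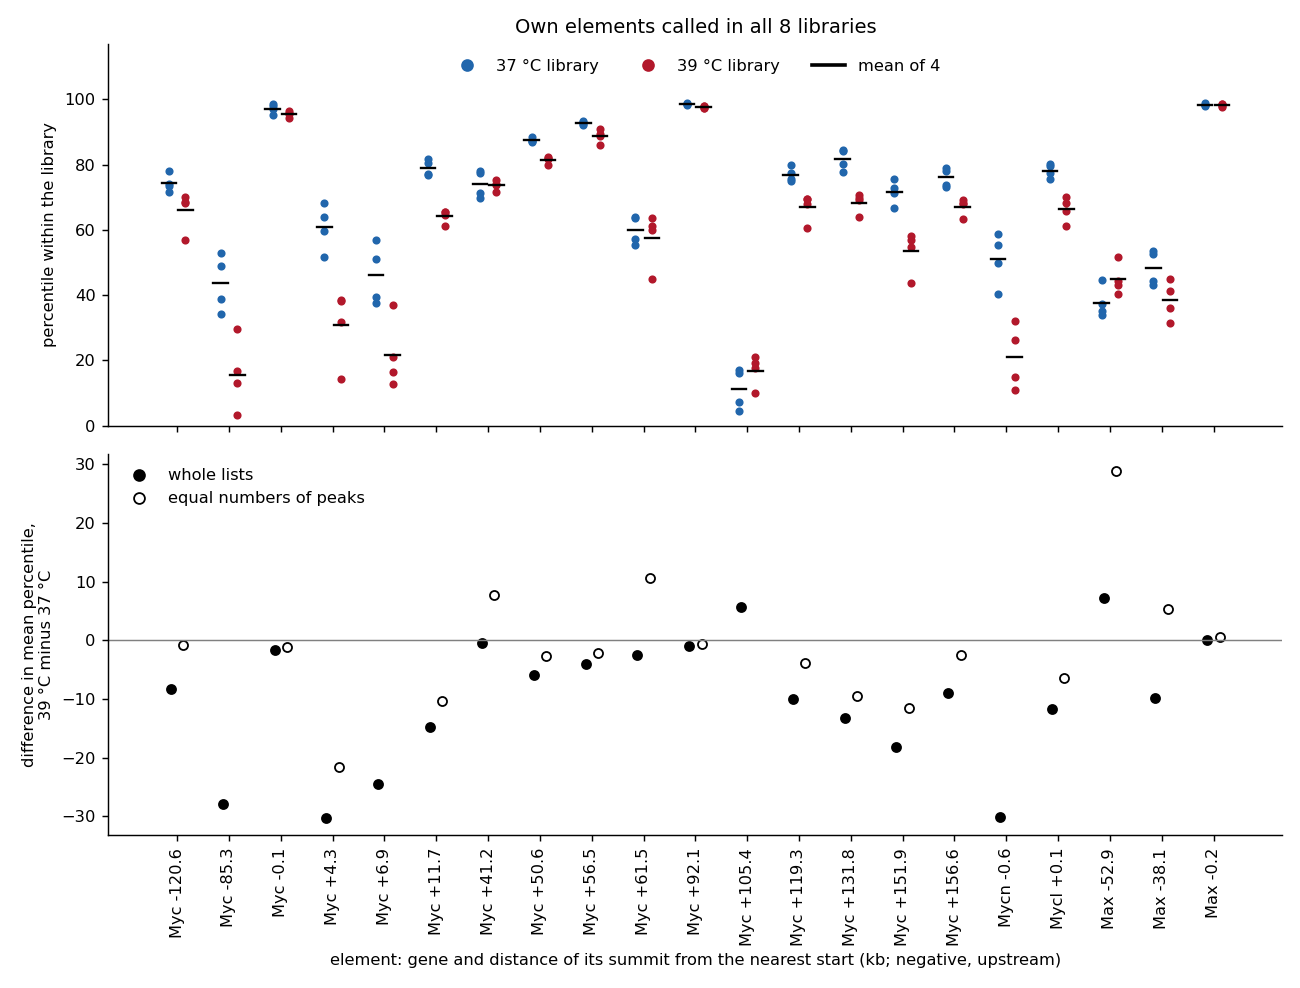
The 21 own elements called in all 8 libraries, labelled by gene and distance from the nearest start in kb: percentile in each library with the mean of 4 (upper panel), and the difference of the means over whole lists and over equal numbers of peaks (lower panel). Points without an open partner were not called in all 8 libraries with equal numbers; the lowest differences are at Myc 4.28 kb downstream and 85.3 kb upstream and at the Mycn promoter, and the highest, with equal numbers, at Max 52.9 kb upstream.

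Some Myc elements were called at 1 temperature. Of the 28, 8 were called at 37 °C only and none at 39 °C only, against 21.2% and 1.84% of all consensus regions. Of these 8, 3 were found in the 2 deeply sequenced libraries alone. Their mean percentiles at 37 °C were low, from 5.94 to 28.3. Only 2 were called in all 4 libraries at 37 °C and in none at 39 °C, both weak and both in Pvt1 introns. Of all consensus regions 6.04% were restricted to 37 °C in this way and 0.314% to 39 °C. The element 147 kb downstream, chr15:62134196-62135294, had percentiles of 14.9, 2.80, 10.3 and 12.1. The element 162 kb downstream, chr15:62148628-62149421, had 16.2, 17.5, 17.8 and 20.0. With equal numbers neither was in any list. A stronger element 137 kb downstream, chosen after its values were seen, had 53.9, 49.9, 37.7 and 54.9 at 37 °C and 8.89 in replicate 1 alone at 39 °C, and with equal numbers it was in all 4 lists at 37 °C and in none at 39 °C.

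Mycl (chr4:122995652-123002485, plus strand) had its promoter element at chr4:122995083-122997669 and 3 distal elements. Own elements numbered 4, 4, 3 and 4 at 37 °C. At 39 °C they numbered 2, 2, 2 and 1. The counts did not overlap (means 3.75 ± 0.500 and 1.75 ± 0.500, difference −2.0, exact permutation p = 0.0286, adjusted p = 0.157), as at 17.9% of coding genes with an own consensus element. Of the 4 elements counted, 2 entered the consensus through libraries at 37 °C alone, so this test is not independent of that filter. Without replicate 4 at 39 °C the difference was −1.75 with an exact permutation p of 0.0571, and with equal numbers it was −0.750 (exact permutation p = 0.400).

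Both Mycl elements whose sequences are shown were called in every library at 37 °C and in none at 39 °C, as were 6.04% of all consensus regions. The upstream one, chr4:122990690-122991435, had percentiles of 40.6, 29.8, 12.3 and 45.6. The downstream one, chr4:123004806-123005709, beyond the end of the gene, had 34.0, 24.9, 22.6 and 46.4. Replicates 1 and 4, the deeply sequenced libraries, were the highest at both. With equal numbers the upstream element was in 3 lists at 37 °C and the downstream one in 1, and still none at 39 °C. The third distal element, 10.4 kb upstream, was called in 3 libraries at each temperature, at means of 42.8 and 30.1.

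Elements nearer another coding gene were most numerous in the Mycl window. The 24 there belonged to 9 genes, led by Cap1 with 5 and by Ppt1 and Mfsd2a with 4 each. Of the 20 in the consensus, 10 were called in all 8 libraries, as were 44861 of all 84777 consensus regions. Those called in all libraries at 37 °C and in none at 39 °C numbered 2, near Bmp8b and Nt5c1a. Of all consensus regions 6.04% were so called. In the Max window the 9 such elements belonged to Fntb with 5 and to Fut8 and Rab15 with 2 each, and none was called in all 4 libraries of 1 temperature and in none of the other.

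**Figure D5:**
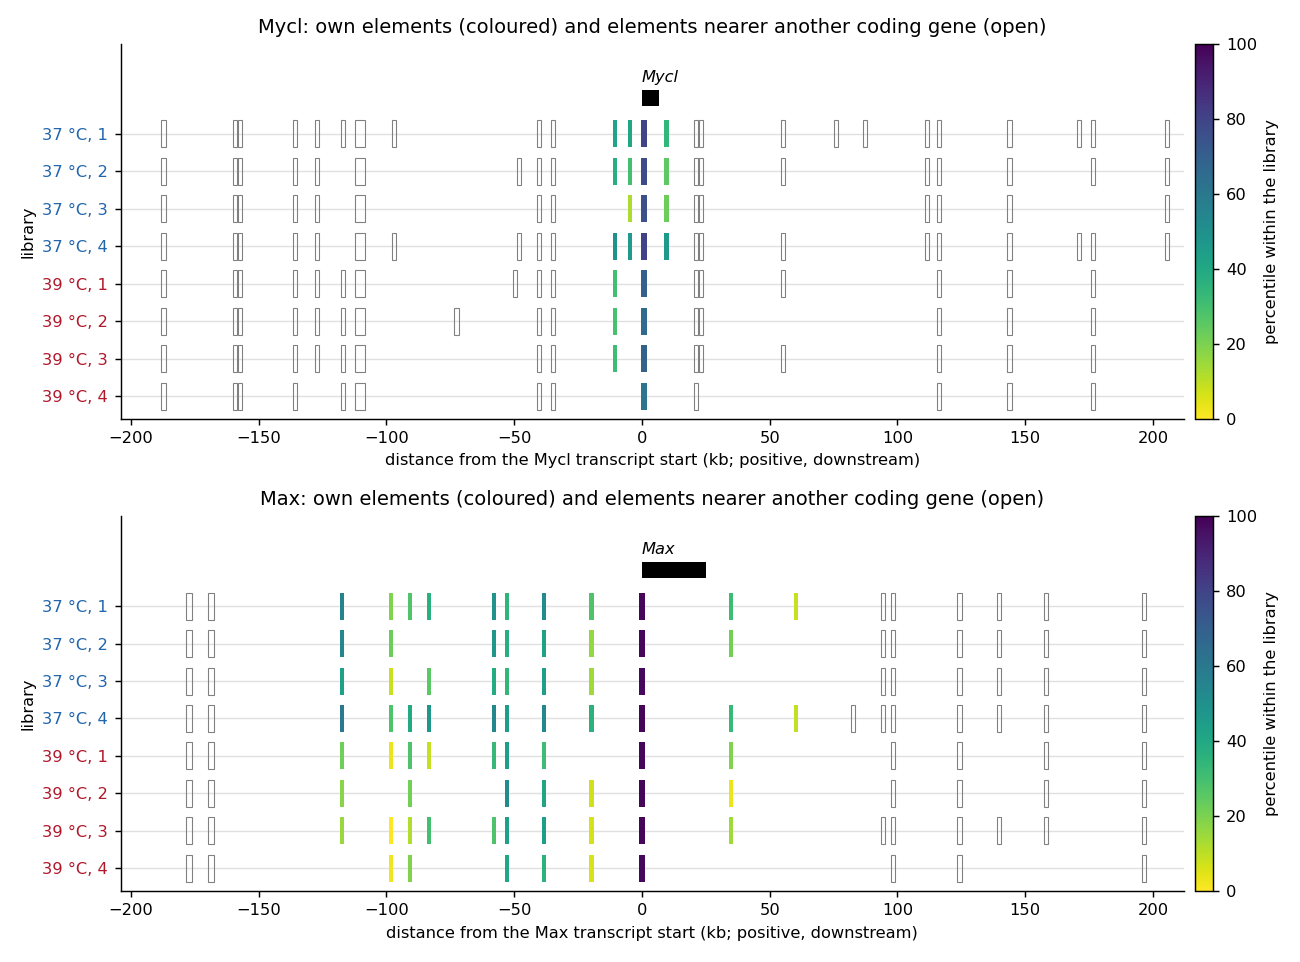
Own elements of Mycl and Max (coloured by percentile within the library) and elements nearer another coding gene (open boxes), by distance from the transcript start in kb, with 1 line per library. At Mycl the nearest element on each side, 4.78 kb upstream and 9.15 kb downstream, is present in the 4 lines of 37 °C and missing at 39 °C, that 10.4 kb upstream is in 3 lines at each temperature, and at Max the distal elements are weak and lie mostly upstream.

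Max (chr12:76937269-76962201, minus strand) had a promoter element at chr12:76961000-76963411 and 10 distal elements, 8 of them upstream. Own elements numbered 11, 8, 8 and 11 at 37 °C. At 39 °C they numbered 9, 7, 10 and 6. The groups overlapped (means 9.50 ± 1.73 and 8.00 ± 1.83, difference −1.50, exact permutation p = 0.371). Again the 2 deeply sequenced libraries had the most. Of the 10, 6 were called in fewer libraries at 39 °C, 1 in fewer at 37 °C, against 37.9% and 5.46% of all consensus regions. None was called in all 4 libraries of 1 temperature and in none of the other, and 1, 60.1 kb downstream, was called in the 2 deeply sequenced libraries alone.

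Of the 10 distal elements of Max, 2 were called in all 8 libraries, against 44861 of all 84777 consensus regions. Both lay in introns of Gm35041, a noncoding gene. The element 38.1 kb upstream, chr12:76999601-77001171, had percentiles of 52.7, 43.0, 44.3 and 53.4 at 37 °C and 31.6, 41.3, 44.9 and 36.1 at 39 °C (difference −9.91, exact permutation p = 0.0857). With equal numbers its difference was 5.38 (exact permutation p = 0.229). The element 52.9 kb upstream, chr12:77014729-77015514, had 35.1, 37.3, 33.8 and 44.7 at 37 °C and 44.4, 51.8, 43.1 and 40.3 at 39 °C. This was higher on average at 39 °C by 7.19, with overlap (exact permutation p = 0.114). With equal numbers its means were 7.49 and 36.3, a difference of 28.9 without overlap (exact permutation p = 0.0286), the largest rise of the 17 own elements so tested. Of all 41180 regions so tested, 15.5% were higher without overlap. The mean of 7.49 lies near the lower end of the shortened lists, and the part of the shortening in this rise was not tested.

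A pair of further Max elements, chosen after their values were seen, were not called in all 8 libraries. The element 118 kb upstream was at 55.1, 53.8, 43.6 and 59.3 at 37 °C, at 21.8, 17.6 and 15.4 in replicates 1 to 3 at 39 °C, and was not called in replicate 4. The element 90.8 kb upstream was called in all 4 libraries at 39 °C, at 27.9, 21.2, 11.9 and 19.1, and at 37 °C in the 2 deeply sequenced libraries only, at 27.6 and 39.1. It was thus the single own consensus element called in more libraries at 39 °C. Over equally long lists it was in 3 at 39 °C and in none at 37 °C.

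Motif letters within 100 bp of the summits were compared with those of all consensus regions. AP-1 letters, bound by Fos and Jun dimers, were in 17 of the 45 own elements (37.8%), against 29.0% of all regions, and 12 of the 17 were at Myc. TEAD letters were in 9 (20.0% against 16.9%), RUNX letters in 10 (22.2% against 24.5%) and NFY letters in 11 (24.4% against 22.6%). SP/KLF letters were in 4 (8.89% against 14.7%), and the E-box and TCF/LEF letters in 1 each (2.22% against 3.59% and 2.62%). E2F, CTCF and p53 decamer letters were in none, against 2.01%, 5.88% and 7.27%. The E2F matches of the Mycn sequence lie upstream of its TSS but not within 100 bp of the summit of its element, and the same holds for the E-box of Max. These counts describe few elements and carry no test.

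Promoters of the wider network around Max were examined next. Of 9 genes (Mxd1, Mxd3, Mxd4, Mxi1, Mnt, Mga, Mlx, Mlxip, Mlxipl), 8 had a promoter peak in all 8 libraries, at a median percentile of 98.8 at 37 °C and 98.2 at 39 °C, and Mlxipl, the carbohydrate-responsive partner of Mlx, had none in any. Of the 8, Mxd3 and Mlx were lower at 39 °C without overlap, against 52.6% of all promoters, and none was higher. Of the 4552 promoters within 5 points of the Max mean of 98.3, 27.7% were lower. Mxd3, a Max partner known from the S phase of dividing precursors, went from 99.0 ± 0.232 to 95.5 ± 0.579 (n = 4), and remained apart with equal numbers (−3.78). Mlx went from 86.5 ± 1.27 to 81.8 ± 1.71, with −0.900 and overlap at equal numbers. There Mga, a Max partner found in a Polycomb complex, was higher by 3.07 without overlap. Of all promoters, 15.1% were lower and 7.46% higher without overlap with equal numbers.

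Among 13 cofactors and turnover factors of Myc (Zbtb17, Trrap, Ep400, Ruvbl1, Ruvbl2, Kat5, Kat2a, Actl6a, Wdr5, Fbxw7, Skp2, Aurka, Usp28), all had a promoter peak in all 8 libraries and 6 were lower at 39 °C without overlap, against 52.6% of all promoters. Kat2a, a histone acetyltransferase, had the largest of these differences at −5.94 (83.3 ± 0.983 to 77.4 ± 2.4), followed by Ruvbl1, an ATPase of chromatin remodelling complexes, at −4.65 and by Ruvbl2, its partner, at −2.34. With equal numbers none of the 13 was apart in either direction, against 15.1% of all promoters lower and 7.46% higher. The median difference was −0.700 over whole lists, at a median percentile of 95.8 at 37 °C. Over all promoters it was −2.49, but over the 5685 promoters within 5 points of the Myc mean of 96.4 it was −0.785. Of these 5685, 30.8% were lower without overlap.

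Of 16 well known target genes of Myc (Odc1, Ncl, Npm1, Nop56, Fbl, Cad, Ldha, Cdk4, Ccnd2, Eif4e, Eif4a1, Nme1, Srm, Tert, Bop1, Rrs1), 15 had a promoter peak in all 8 libraries and Tert, the telomerase subunit, had none in any. Without overlap 12 of the 15 were lower at 39 °C and none was higher, with a median difference of −1.62 at a median percentile of 95.4 at 37 °C, against 52.6% lower and a median of −2.49 over all promoters. Of the promoters within 5 points of the Myc mean, 30.8% were lower. Ccnd2, a G1 cyclin, went from 73.4 ± 2.41 to 63.0 ± 2.48, Fbl, a nucleolar methyltransferase, from 88.4 ± 0.730 to 84.0 ± 1.79, and Cad, of pyrimidine synthesis, from 94.8 ± 0.488 to 90.8 ± 1.07. With equal numbers 5 were lower (Ncl, Cad, Ccnd2, Nme1, Srm) and Ldha, of glycolysis, was higher, with a median of −0.552, against 15.1% lower and a median of −0.0905 over all promoters.

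The genes whose promoter percentiles ran most like each member over the 8 libraries are given as a description, since all libraries share the step between temperatures and the differences in depth. For Myc these were Clasp1 (Pearson r = 0.977), Cnot1 (0.971), Atg101 (0.963), Brd8 (0.958) and Kif20a (0.958), and 10 promoters were above 0.95. For Mycn they were Ndufc2 (0.999), Nup43 (0.998), Grina (0.996), Cplx1 (0.995) and H2-Q1 (0.995), but 1969 promoters were above 0.95. For Mycl, with 3129 above 0.95, Gpr3 (0.999), BC030500, Galntl6, Ikzf4 and Kcnf1 came first. For Max none was above 0.95, and Sec14l5 (0.944), Arhgap19, Cables2, Enpp2 and Dcakd came first.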

How the data were processed

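Chromatin accessibility was measured by Omni-ATAC in 8 libraries of SN4741 cells. Per the labels and methods, the authors aligned paired reads to mm10 with Bowtie2 2.4.1, used SAMtools 1.15.1, Picard 2.26.11 and bedtools 2.30.0, and called peaks in each library separately with MACS3 3.0.0a7, without control or local background, at q = 0.05. The methods also name a removal of peaks in blacklisted regions, but the peak numbers in each deposited list run without a gap, so the lists may precede that step; they were used as deposited, and its effect on percentiles and peak numbers was not tested. Per the file headers, each deposited peak has a position, a pileup signal at the summit, a fold enrichment (a ratio) and −log10 p and q; fragments kept are header values. The deposited −log10 q was turned into a percentile within each list, because depth changes it. No counts in fixed regions were used, so no count model was fitted.

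Peaks were merged where they shared 1 base. TSSs were those of GENCODE M21 protein-coding transcripts, and promoters reached 1 kb to each side. Libraries were grouped by temperature from their titles. Exact two-sided permutation tests over the 70 assignments were run on all genes or regions and adjusted by Benjamini-Hochberg with numpy 2.4.6 and pandas 2.3.3 (Python 3.11.15), after the scripts had been tested on simulated data. Alternatives were equal numbers of peaks, −log10 q of at least 5, 50% coverage of an element, elements of 1 library, fold enrichment, promoters of 5 kb, windows of 100 kb, TSSs of any gene, libraries under 100 M fragments, leaving out each library and the replicate block. Sequences came from the reference of the same build, whose chromosomes no peak passed; the window before the Mycl TSS is not reported here.

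The members and lists were chosen with earlier results of these data known. Named were promoter elements; own elements in all libraries of 1 temperature and none of the other (up to 5 per gene and direction); the 3 strongest distal elements called in all 8; own elements called in all 8 without overlap (up to 5 per gene, by size); in each list the genes without a promoter peak in all 8 and the 3 with the largest difference without overlap; and the 5 genes most like each member.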

Additional observations from a re-analysis of the deposited data

Results flagged for a closer look

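Among 46 sets of 4 libraries of 1 temperature (promoter percentile, promoter width and number of own elements of each gene, and the percentiles of named elements), 4 held a value far from the other 3 by Dixon's test. Chance would give about 1 in 20, but this rate does not hold for 2 of the 4, whole-number counts with 3 tied values, whose ratio is 1 by construction. Replicate 4 at 39 °C had a Myc promoter peak of 5522 bp, whose gap to the next library was 0.974 of the range of its group. The same library had a Mycl promoter peak of 1948 bp, with a gap of 0.873 of the range, and 1 own element of Mycl where the others had 2. At 37 °C replicate 3 had 3 own elements of Mycl where the others had 4. Replicate 4 at 39 °C had the shortest list (54845 peaks) and replicate 3 at 37 °C the fewest fragments (49.8 M); the part of either in these values was not tested.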

How the results depend on the processing

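These results changed with list length, the libraries used and the TSSs allowed, and the part of depth was not tested. With equal numbers of peaks the difference in own elements was −1.25 for Myc and −0.750 for Mycl, elements in all libraries at 37 °C and none at 39 °C (restricted to 37 °C) went from 4 to 1 (none of the 4, but Myc 137 kb downstream), elements lower at 39 °C without overlap from 14 to 7, higher ones from 0 to 3, and the Max promoter to 0.556. The Mycn promoter could not be tested so. With equal numbers in 7 libraries, chosen after seeing the data, these were −1.67 for Myc (exact permutation p = 0.0286) and −1.75 for Mycl, 2 against 1 in the other direction, 9, 3 and 0.543, with 0.0833 for own elements of Max and −271 bp for the width of Mycl. Between libraries under 100 M fragments, where p could not fall below 0.0667, differences were −3.75 (Myc), −1.75 (Mycl) and 0 (Max) own elements, −0.578 (Myc), −24.2 (Mycn), −10.2 (Mycl) and 0.179 (Max) percentile points, and −527 (Myc), −613 (Mycn), −210 (Mycl) and 93.5 bp (Max) of width, with 1 element restricted to 39 °C and 3 higher. With 50% of an element covered, own elements differed by −8.50 (Myc), −1.0 (Mycl) and −3.25 (Max), 2 were restricted to 37 °C and 6 of 8 lower. With windows of 100 kb the values were −2.50 (Myc), 2 and 9, and with TSSs of any gene 0 (Myc and Max), 2 and 5. With −log10 q of at least 5 own elements of Max differed by −2.50, and the Max promoter was at 0.0452.

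Leaving out 1 library, the differences in own elements ranged from −8.75 to −5.08 (Myc), −2.25 to −1.75 (Mycl) and −2.17 to −0.667 (Max). Promoter percentiles ranged from −2.36 to −1.19 (Myc), −33.8 to −26.8 (Mycn), −13.1 to −10.1 (Mycl) and −0.169 to 0.159 (Max, including 0.149 and 0.0427). Widths ranged from −671 to −279 bp (Myc), −791 to −556 bp (Mycn), −377 to −271 bp (Mycl) and −202 to −29.5 bp (Max). Elements restricted to 37 °C ranged from 4 to 6, lower ones from 14 to 15 and higher ones from 0 to 1.

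Of named elements, the direction turned at Max 38.1 kb upstream (5.38 with equal numbers, 2.50 in 7 libraries), at Myc 41.2 kb downstream (7.81, 6.04, 0.562 with −log10 q of at least 5, 3.14 under 100 M fragments, and −1.85 to 0.905 leaving out 1 library, with 0.643 and 0.317 among them) and at Myc 61.5 kb downstream (10.7, 10.7, 1.23 under 100 M fragments and −4.50 to 1.62 leaving out 1 library). The causes were not tested.

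The replicate block, an exact sign-flip test of 4 pairs, cannot fall below p = 0.125, so it says nothing about stability. It left the differences at −7.25 and −2.0 own elements, −30.1 and −11.8 percentile points and −568, −685 and −330 bp, with 1 element higher in every pair. Correlations of same-numbered libraries were 0.256, −0.153, −0.189 and −0.479, and not every library correlated best with its own number. These 4 values do not show a pairing by number and cannot exclude one. Of 351 alternative values with a test, 253 kept direction and side of the threshold, and of 64 counts of elements 46 were within 1.5 times the reported count.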
